A study of Mus musculus with 6 samples.

Results

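The genes described are 10 members of the intermediate filament family: the keratin genes Krt7, Krt8, Krt18, Krt19 and Krt42, the vimentin gene Vim, the nestin gene Nes, and the lamin genes Lmna, Lmnb1 and Lmnb2. They were found by symbol, 1 row each, among 78298 genes in a table of TPM (transcripts in each 1000000, a share of a library corrected for transcript length). The libraries were made from poly(A) RNA of wild-type mouse epiblast-like cells (EpiLCs, resembling the epiblast after implantation; labelled mEpiLC) and mouse embryonic stem cells (ESCs, resembling the epiblast before it; labelled mESC), 3 libraries of each. All 6 came from 1 clone, H18 of the line labelled BVSC, so the values describe that clone. The labels used here give neither medium nor days of differentiation, and all 6 column headers carry a 0uM tag whose agent no label names. Replicates are described as biological, but no label tells whether they were separate cultures, so p-values cover no more than the variation among these 6 libraries.

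Intermediate filament proteins share a long coiled-coil rod and build the rope-like filaments of the cytoplasm and the meshwork under the inner nuclear membrane. Keratins are obligate pairs of an acidic type I chain (Krt18, Krt19, Krt42) and a basic type II chain (Krt7, Krt8), and Krt8 with Krt18 forms the earliest keratin filaments of the mouse embryo and those of simple epithelia. Vimentin, of type III, marks mesenchymal and many cultured cells, and nestin, known from neural progenitors, assembles together with it. B-type lamins (Lmnb1, Lmnb2) stay farnesylated and are made in nearly all cells, whereas A-type lamins, all from Lmna, are low in pluripotent cells and rise with differentiation and tissue stiffness.

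TPM hold no record of sequencing depth, which is unknown here, and 13610 to 13983 genes per library had at least 1 TPM. The labelled states were checked against markers of each. All 6 epiblast-like markers were higher in EpiLCs, with a summed level of 817 to 1100 TPM in EpiLC libraries against 34.5 to 36.1 TPM in ESC libraries, and all 6 naive markers were lower, at 56.5 to 71.6 TPM in EpiLC libraries against 833 to 913 TPM in ESC libraries. Within EpiLCs the libraries were uneven: the epiblast gene Fgf5 had 5.74, 3.61 and 14.8 TPM and Otx2 38.1, 22.9 and 59.5 TPM in replicates 1, 2 and 3. In bulk RNA, fewer cells making a transcript and less transcript per cell cannot be told apart.

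Of the 10 genes, 5 rose, 3 fell and 2 did not pass the test in EpiLCs relative to ESCs. Krt18, Krt8, Krt19, Nes and Lmnb1 rose, Krt42, Vim and Lmna fell, and Krt7 and Lmnb2 were not called. The test was limma on log2(TPM + 1), two-sided, with Benjamini-Hochberg adjustment over the 14036 genes with a mean of at least 1 TPM and a threshold of 0.05, and each difference is the EpiLC mean less the ESC mean on this scale, on which changes of low genes come out too small. Over all tested genes 36.1% were called higher and 30.9% lower, 66.9% in all, so a share of 8 called genes among 10 lies not far from that of the whole table. The EpiLC and ESC values did not overlap for 9 of the 10 genes, against 71.5% of all tested genes. The median difference was 0.24 over the 10 genes and 0.04 over all tested genes. All 10 genes had a mean of at least 1 TPM in both groups.

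**Figure D1:**
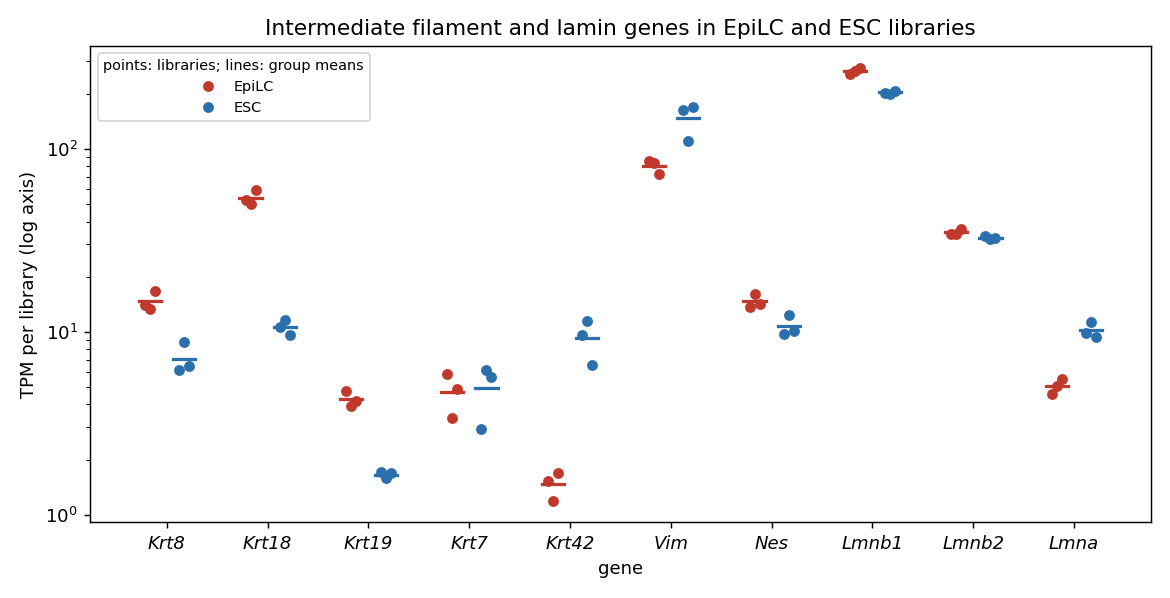
TPM in each library (log axis) of the 10 intermediate filament and lamin genes, EpiLC libraries left of ESC libraries for each gene, with points for libraries and lines for group means (n = 3 each). The EpiLC and ESC points are separate for every gene shown other than Krt7, and the widest gaps are those of Krt18 and Krt42.

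The simple-epithelial keratin pair rose together, by unequal amounts. Krt18 (ENSMUSG00000023043), the type I partner, had 52.2, 49.97 and 59.2 TPM in the EpiLC libraries, against 10.6, 11.6 and 9.61 TPM in the ESC libraries. Every EpiLC library was thus well above every ESC library, and the means were 53.8 ± 4.80 and 10.6 ± 1.01 TPM (SD, n = 3 each), a 5.06-fold ratio. The log2 difference was 2.24 (SE 0.09, limma adjusted p = 9.6e-07). Krt8 (ENSMUSG00000049382), the type II partner, had 14.1, 13.3 and 16.6 TPM in the EpiLC libraries, against 6.15, 8.75 and 6.46 TPM in the ESC libraries. The groups did not overlap, although ESC replicate 2 stood above the other ESC libraries. The log2 difference of Krt8 was 0.95 (SE 0.14, limma adjusted p = 5.4e-04). In both groups Krt18 RNA exceeded Krt8 RNA, and the Krt8 to Krt18 ratio of TPM was 0.27 ± 0.0079 in EpiLCs and 0.67 ± 0.087 in ESCs. The ratio was lower in every EpiLC library than in any ESC library (two-sided exact permutation p = 0.10, the smallest that 3 against 3 libraries allow, and 0.10 adjusted over 7 pairs of genes compared).

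Krt8 and Krt18 are neighbours on chromosome 15, a type II gene beside a type I gene at the edge of the type II keratin cluster, and their promoters (250 bases before and 50 after the annotated start, RefSeq, build GRCm38.p6) are shown because both genes rose. Krt18 lies at chr15:102027966-102028265, plus strand, and Krt8 at chr15:102004293-102004592, minus strand. Capitals mark matches, on either strand, to any of 4 motifs. The letters searched were TATAAA for the TATA box, the name itself for the CCAAT box, GGGCGG for the box rich in G and C (GC box), and TGANTCA for the site of the factor AP-1.
Krt18: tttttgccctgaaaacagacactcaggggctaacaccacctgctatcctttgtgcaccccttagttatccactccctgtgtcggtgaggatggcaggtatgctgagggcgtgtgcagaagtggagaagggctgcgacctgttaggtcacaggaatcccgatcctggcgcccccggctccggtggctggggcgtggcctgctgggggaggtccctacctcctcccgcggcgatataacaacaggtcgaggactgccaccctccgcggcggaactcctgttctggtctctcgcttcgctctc
Krt8: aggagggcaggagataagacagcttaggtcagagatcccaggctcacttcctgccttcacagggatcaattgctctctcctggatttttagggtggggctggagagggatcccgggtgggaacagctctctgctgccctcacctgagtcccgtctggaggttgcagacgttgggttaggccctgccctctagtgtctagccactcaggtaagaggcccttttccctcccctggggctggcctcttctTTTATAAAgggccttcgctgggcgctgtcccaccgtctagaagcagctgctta
The Krt8 window held the TATA box letters on both strands, overlapping, the same-strand match beginning 1 base before the annotated start, and none of the other motifs. The Krt18 window held none of the 4 motifs in these letters. The TATA box letters were in 13.6% of the 32851 promoters in the table, the CCAAT box in 37.4%, the GC box in 35.7% and the AP-1 site in 7.81%. The Krt18 window had 17 CG dinucleotides and the Krt8 window 6, with a median of 7 over all promoters. These matches are descriptions of the letters only.

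The genes on either side of the pair were looked up by position, whatever their values. Krt78, the keratin gene next to Krt8, had at most 0.178 TPM in any EpiLC library and at most 0.0296 TPM in any ESC library. Eif4b, a translation initiation factor gene on the Krt18 side, had 535, 592 and 534 TPM in EpiLCs, against 491, 499.9 and 492 TPM in ESCs. Its log2 difference was 0.16 (limma adjusted p = 0.019), a call lost in 5 of 15 alternatives, including without ESC replicate 1 or ESC replicate 3 (adjusted p from 0.012 to 0.072 over all alternatives). The next gene out, Tns2, which encodes the focal adhesion protein tensin 2, was higher by 1.24 (limma adjusted p = 0.0010).

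Krt19, a type I keratin that lacks most of the usual tail, was weakly expressed and rose. Krt19 (ENSMUSG00000020911) had 4.76, 3.90 and 4.18 TPM in the EpiLC libraries, against 1.70, 1.58 and 1.68 TPM in the ESC libraries, with no overlap. The log2 difference was 0.99 (SE 0.11, limma adjusted p = 1.3e-04). Relative to Krt18 it fell behind: the Krt19 to Krt18 ratio was 0.080 ± 0.010 in EpiLCs and 0.16 ± 0.020 in ESCs (two-sided exact permutation p = 0.10, the smallest possible).

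Krt7, a type II keratin of simple and glandular epithelia and trophoblast, did not pass the test. Krt7 (ENSMUSG00000023039) had 5.85, 3.39 and 4.86 TPM in the EpiLC libraries, against 2.92, 6.17 and 5.64 TPM in the ESC libraries. The lowest and the highest of the 6 values were both in ESCs, and the groups overlapped widely. The log2 difference was -0.03 with a 95% interval of -0.62 to 0.57 (limma adjusted p = 0.93). A rise or a fall within that interval was therefore not excluded. The sign of the difference changed without EpiLC replicate 2, ESC replicate 2 or ESC replicate 3 and with sample weights. The Krt7 to Krt8 ratio was 0.32 ± 0.084 in EpiLCs and 0.68 ± 0.20 in ESCs, without overlap (two-sided exact permutation p = 0.10, the smallest possible).

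Krt42, a type I keratin of the chromosome 11 cluster, fell the most among the 10 genes. Krt42 (ENSMUSG00000053654) had 1.53, 1.19 and 1.69 TPM in the EpiLC libraries, against 9.57, 11.5 and 6.57 TPM in the ESC libraries. Its lowest ESC value was several times its highest EpiLC value, and the ESC to EpiLC ratio of means was 6.26. The log2 difference was -2.02 (SE 0.19, limma adjusted p = 4.7e-05). In ESCs, Krt42 RNA was close to Krt18 RNA, with a ratio of 0.86 ± 0.15, while in EpiLCs the ratio was 0.027 ± 0.0029 (two-sided exact permutation p = 0.10, the smallest possible). Its promoter, at chr11:100269902-100270201 on the minus strand of GRCm38.p6 (RefSeq), is shown as that of the 1 keratin of the 10 genes that fell, with capitals for the same motifs.
Krt42: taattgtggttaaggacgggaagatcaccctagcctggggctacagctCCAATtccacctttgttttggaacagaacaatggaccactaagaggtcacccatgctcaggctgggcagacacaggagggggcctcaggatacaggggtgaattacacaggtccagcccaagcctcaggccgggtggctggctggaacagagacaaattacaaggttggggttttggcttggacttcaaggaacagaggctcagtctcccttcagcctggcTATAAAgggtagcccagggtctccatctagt
This window held the TATA box letters beginning at the 20th base after the annotated start, a CCAAT box 202 bases before the start, and 2 CG dinucleotides. By position, the protein-coding genes flanking Krt42 are Krt17 and Eif1. Krt17, a type I keratin of basal and injured epithelium, had 2.44, 1.27 and 2.14 TPM in EpiLCs, against 2.79, 3.41 and 2.77 TPM in ESCs, and Eif1, which encodes an initiation factor for start codon selection, fell, with a log2 difference of -0.81 (limma adjusted p = 1.3e-04).

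Seen together, the 5 keratins summed to 78.9 ± 7.41 TPM in EpiLCs and 33.5 ± 5.29 TPM in ESCs. The type I genes carried most of that difference, with 59.5 ± 5.07 TPM in EpiLCs and 21.5 ± 3.42 TPM in ESCs, against 19.3 ± 2.46 and 12.0 ± 2.92 TPM for the type II genes in EpiLCs and ESCs. Krt18 made up 68.2 ± 1.57% of the keratin sum in EpiLCs and 31.9 ± 2.47% in ESCs, and Krt42 made up 1.85 ± 0.16% in EpiLCs and 27.2 ± 4.71% in ESCs. The share of Krt8 differed less, at 18.5 ± 0.62% in EpiLCs and 21.2 ± 1.17% in ESCs.

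**Figure D2:**
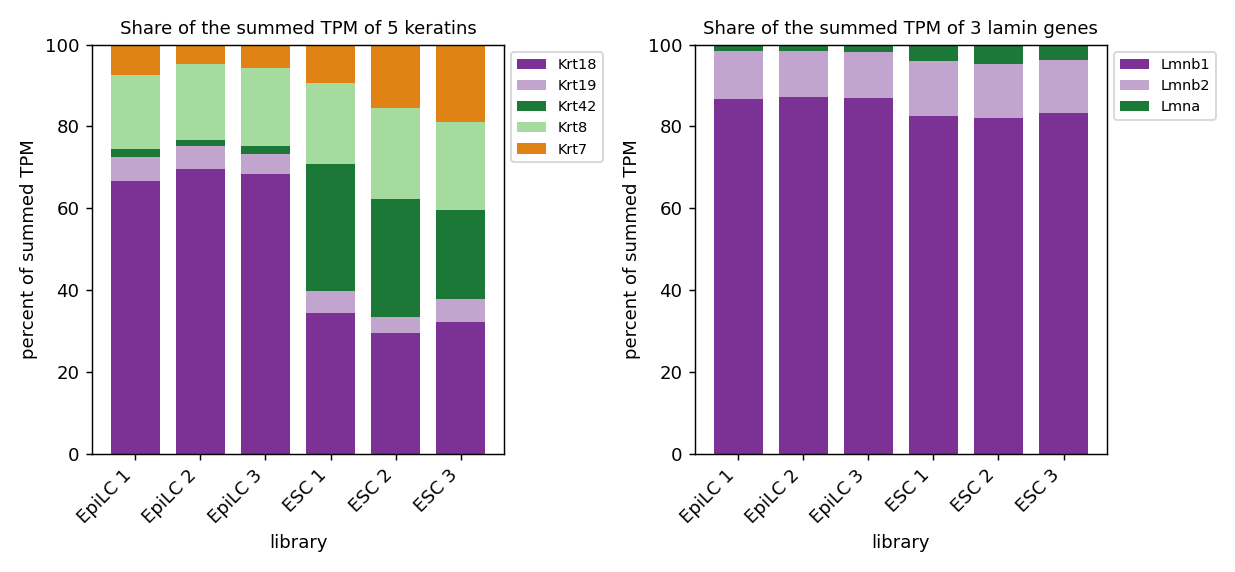
Share of each gene (percent, stacked) in the summed TPM of the 5 keratins and of the 3 lamin genes in each of the 6 libraries, EpiLC left of ESC. Krt18 takes 66.6 to 69.7% of the keratin sum in EpiLC libraries and 29.4 to 34.3% in ESC libraries, and Lmna takes under 2% of the lamin sum in each EpiLC library.

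Shared sequence limits some of these values. Of the distinct 31-base words in the Krt8 transcripts of GENCODE M21, 32.3% also occur in other genes, nearly all in the pseudogene Krt8-ps. The table lists Krt8-ps at 0.800, 0.4998 and 0.762 TPM in EpiLCs, against 0.190, 0.186 and 0.187 TPM in ESCs, so it took a small part of the pair's total, but reads could have been split between the copies. For Krt18 the share was 11.4%, mostly with Gm5200, which was at 0 in every library but ESC replicate 3 (0.0306 TPM). For Krt42 it was 4.62%, for Krt7 2.11%, and for Krt19, Vim, Nes and the 3 lamin genes at most 1.41%.

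Keratins outside the 10 genes were mostly below the filter. Of 48 other keratin genes listed (24 of each type), 46 had a mean below 1 TPM and were not tested, 9 of type I and 5 of type II at 0 in every library, and none of these 46 exceeded 1.59 TPM in any library. With no filter on TPM, limma called 6 of the 32 that were above 0 in some library, against 30.1% of all 36675 genes in that fit and 11.6% of the 22639 with a mean below 1 TPM. The 2 keratins above the filter, both type I, fell. Krt10, a keratin of differentiating epidermis, had 1.82, 2.46 and 2.56 TPM in EpiLCs, against 4.48, 4.5996 and 3.97 TPM in ESCs (log2 difference -0.71, SE 0.13, limma adjusted p = 0.0017). For Krt17, given above, the log2 difference was -0.45 (SE 0.18, limma adjusted p = 0.0497). That call was lost in 10 of 14 alternatives, among them those without EpiLC replicate 2 or 3 or any single ESC library (adjusted p from 0.030 to 0.14 over all alternatives).

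Trophectoderm and endoderm, which are keratin-rich tissues of the embryo, left weak marker signals. The 7 trophectoderm markers summed to 3.14 to 6.12 TPM in EpiLC libraries and 3.02 to 3.86 TPM in ESC libraries. Only Ascl2 passed the filter, and it was not called. Of the other 6, all weak, 3 were higher in EpiLCs without overlap and 1, Tfap2a, was lower. Groups did not overlap for 71.5% of all tested genes, a share not computed for genes below the filter. With no filter on TPM, limma called 11.6% of genes with a mean below 1 TPM. The higher markers were Cdx2, Gata3 and Plac1, called by limma in that fit (adjusted p = 0.0036, 0.024 and 0.0025). Gata3, the most abundant of these, was at 1.00 ± 0.45 TPM in EpiLCs and 0.166 ± 0.14 TPM in ESCs. The 8 primitive endoderm markers summed to 7.62 to 11.3 TPM in EpiLC libraries and 5.28 to 6.58 TPM in ESC libraries. Dab2, called higher, carried the EpiLC sum. The other 7 markers summed to 1.27 to 2.43 TPM in EpiLC libraries and 5.21 to 6.41 TPM in ESC libraries. Gata4, the other one tested, was called lower. Both passed the filter only through the group where they were higher, with Dab2 at 0.123 ± 0.050 TPM in ESCs and Gata4 at 0.773 ± 0.32 TPM in EpiLCs. Of the 7 markers other than Dab2, 1 was higher in EpiLCs without overlap and 4 were lower. Among the weaker ones, limma with no filter called Sox17 and Gata6 lower (adjusted p = 0.0016 and 0.018) and Sox7 higher (adjusted p = 0.016). No marker of either list was at 0 in every library, and the part of such cells in the keratin values was not tested.

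Vimentin RNA fell in EpiLCs. Vim (ENSMUSG00000026728) had 85.6, 84.1 and 73.1 TPM in the EpiLC libraries, against 164, 110 and 170 TPM in the ESC libraries. The groups did not overlap, but ESC replicate 2 lay nearer to the EpiLC values than the other ESC libraries. The means were 80.9 ± 6.81 TPM in EpiLCs and 148 ± 33.1 TPM in ESCs, and the log2 difference was -0.84 (SE 0.16, limma adjusted p = 0.0021), or -1.04 without ESC replicate 2. The 7 fibroblast markers summed to 12.6 to 15.9 TPM in EpiLC libraries and 3.18 to 5.70 TPM in ESC libraries. Most of that was Thy1, which like Dcn, the other one tested, was called higher. Dcn was at 0 in every ESC library and passed the filter through its EpiLC values alone. Of the 6 markers other than Thy1, 3 were higher in EpiLCs without overlap and 1 was lower, against 71.5% without overlap among tested genes. Col1a2 was among the higher ones, at 0.412 ± 0.060 TPM in EpiLCs and 0.0133 ± 0.0075 TPM in ESCs. Col1a1, the lower one, was at 0.380 ± 0.077 TPM in EpiLCs and 0.918 ± 0.39 TPM in ESCs. With no filter on TPM, Col1a2 was called (limma adjusted p = 7.6e-04) and Col1a1 was not (limma adjusted p = 0.115). The 6 early mesoderm markers summed to 3.55 to 4.26 TPM in EpiLC libraries and 6.63 to 8.22 TPM in ESC libraries, and the 1 tested, Eomes, was lower. Without Eomes the sums were 1.43 to 1.62 TPM in EpiLC libraries and 1.38 to 1.48 TPM in ESC libraries. These near-equal sums held opposite changes, with Mixl1 higher and T and Kdr lower in EpiLCs, all without overlap. With no filter on TPM, Mixl1 and T were called (limma adjusted p = 0.0022 and 0.012) and Kdr was not (limma adjusted p = 0.063). The part of such cells in the Vim values was not tested.

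The Vim promoter, at chr2:13574061-13574360 on the plus strand of GRCm38.p6 (RefSeq), is shown beside those of the keratins as that of the most abundant cytoplasmic filament gene in both states, with capitals for the same motifs.
Vim: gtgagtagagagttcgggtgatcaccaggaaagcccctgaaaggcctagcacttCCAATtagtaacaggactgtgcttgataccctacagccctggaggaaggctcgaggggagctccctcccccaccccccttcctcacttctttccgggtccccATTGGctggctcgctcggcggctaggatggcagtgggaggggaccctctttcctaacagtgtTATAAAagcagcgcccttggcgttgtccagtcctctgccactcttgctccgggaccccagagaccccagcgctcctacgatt
It held the TATA box letters 32 bases before the annotated start and 2 CCAAT boxes, 1 on each strand, at 196 and 94 bases before it. Of the 10 genes, 8 had their RefSeq promoters searched, and those of Krt19 and Lmnb1 were not searched. Among the 8 searched, TATA box letters were in those of Krt8, Krt42 and Vim.

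Nestin RNA rose slightly. Nes (ENSMUSG00000004891) had 13.6, 16.1 and 14.2 TPM in the EpiLC libraries, against 9.77, 12.4 and 10.1 TPM in the ESC libraries. The lowest EpiLC value and the highest ESC value were close, and the log2 difference was 0.41 (SE 0.11, limma adjusted p = 0.011). The Vim to Nes ratio was 5.55 ± 0.64 in EpiLCs and 14.1 ± 4.56 in ESCs, without overlap (two-sided exact permutation p = 0.10, the smallest possible).

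**Figure D3:**
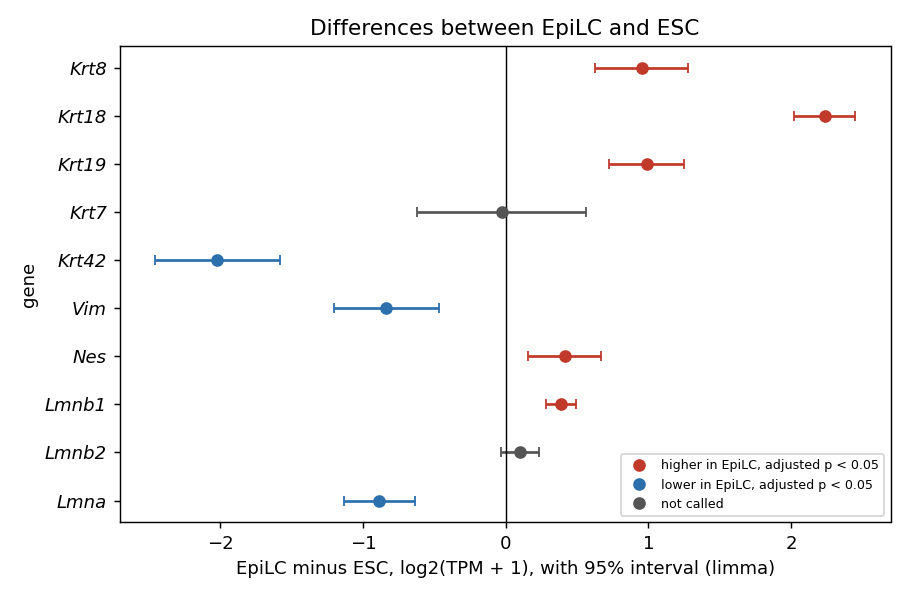
Difference of EpiLCs from ESCs, in log2(TPM + 1), for each of the 10 genes, with 95% intervals from limma (n = 3 libraries each), coloured by the call. Krt18 lies farthest to the right at 2.24 and Krt42 farthest to the left at -2.02, and the intervals of Krt7 and Lmnb2 span 0.

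Of the neuronal filament genes, Ina, Prph and Nefh rose and the neurofilament genes Nefl and Nefm were not called. Of 10 other type III, type IV and lens filament genes, 7 were tested, 4 rose and none fell. The shares over all tested genes were 36.1% higher and 30.9% lower. The median difference was 0.39 over those tested against 0.04 over all tested genes. Ina, which encodes internexin alpha, an early neuronal filament protein, had 30.3, 34.2 and 30.9 TPM in EpiLCs, against 1.25, 1.24 and 1.03 TPM in ESCs (log2 difference 3.92, SE 0.10, limma adjusted p = 1.6e-07). Prph, for peripherin of peripheral neurons, had 40.3, 36.7 and 29.7 TPM in EpiLCs, against 3.24, 3.18 and 3.37 TPM in ESCs, a difference of 3.09. Nefh, for the heavy neurofilament subunit, had 10.1, 10.1 and 10.8 TPM in EpiLCs, against 1.45, 1.75 and 1.30 TPM in ESCs, a difference of 2.18. None of these 3 genes showed any overlap between groups. Nefl, for the light subunit, was at 12.2 ± 3.59 TPM in EpiLCs and 9.01 ± 1.31 TPM in ESCs (limma adjusted p = 0.144), and Nefm, for the medium subunit, was at 1.71 ± 0.21 TPM in EpiLCs and 1.58 ± 0.73 TPM in ESCs (limma adjusted p = 0.68). The muscle filament gene Des was at 10.4, 14.9 and 10.3 TPM in EpiLCs and 14.3, 15.7 and 13.0 TPM in ESCs, and was not called (log2 difference -0.27, limma adjusted p = 0.145). It was called lower in 2 of 15 alternatives, among them the 1 without EpiLC replicate 2 (log2 difference -0.43, adjusted p from 0.0094 to 0.36 over all alternatives). The summed level of 7 neural markers was also higher, at 50.8 to 62.1 TPM in EpiLC libraries against 12.9 to 15.7 TPM in ESC libraries. Of 5 tested, 4 were called higher, and no marker was at 0 throughout. Pax6 and Neurod1, at means of 0.248 and 0.371 TPM in ESCs, passed the filter only through their EpiLC values, which tilts that count. Whatever the filter, 4 of the 6 markers other than Tubb3 were higher without overlap and 0 were lower. Among all tested genes, 71.5% did not overlap in either direction, a share not computed for genes below the filter. The part of neural cells in the filament values was not tested.

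Among the lamins, Lmna fell, Lmnb1 rose and Lmnb2 did not pass the test. Lmna (ENSMUSG00000028063), whose alternative transcripts for lamins A and C the table does not separate, had 4.57, 5.06 and 5.48 TPM in the EpiLC libraries, against 9.80, 11.3 and 9.41 TPM in the ESC libraries. The groups did not overlap, and the log2 difference was -0.89 (SE 0.11, limma adjusted p = 1.8e-04), a 2.02-fold ratio of the ESC to the EpiLC mean. Lmnb1 (ENSMUSG00000024590), for lamin B1, was the most abundant of the 10 genes in both states. It had 256, 267 and 278 TPM in the EpiLC libraries, against 203, 199.9 and 208 TPM in the ESC libraries. Its log2 difference was 0.39 (SE 0.05, limma adjusted p = 1.6e-04), small but with little spread between libraries. Lmnb2 (ENSMUSG00000062075), for lamin B2, had 34.3, 34.3 and 36.4 TPM in the EpiLC libraries, against 33.2, 32.1 and 32.5 TPM in the ESC libraries. Its EpiLC values lay just above its ESC values, and it was not called (log2 difference 0.10, 95% interval -0.03 to 0.23, limma adjusted p = 0.15).

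The lamin mixture was dominated by B1 in both states. Lmnb1 made up 87.0 ± 0.18% of the summed lamin TPM in EpiLCs and 82.6 ± 0.56% in ESCs, and Lmna made up 1.64 ± 0.082% in EpiLCs and 4.14 ± 0.47% in ESCs. The Lmna to Lmnb1 ratio was 0.019 ± 0.00093 in EpiLCs and 0.050 ± 0.0060 in ESCs, and the Lmnb2 to Lmnb1 ratio was 0.13 ± 0.0029 in EpiLCs and 0.16 ± 0.0039 in ESCs. Neither ratio overlapped between groups (two-sided exact permutation p = 0.10 for each, the smallest possible). The lamin sum was 307 ± 12.6 TPM in EpiLCs and 246 ± 3.42 TPM in ESCs.

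Genes for proteins that tether the lamina or span the nuclear envelope moved both ways. Of 22 listed, 21 were tested, 6 were higher and 10 lower, with a median difference of -0.07 over those tested. Over the alternatives, 5 to 7 were higher and 7 to 10 lower. All tested genes moved both ways too, 36.1% higher and 30.9% lower. Both SUN proteins, which bind lamins at the inner nuclear membrane and link them to the cytoskeleton, had lower RNA. Sun1 had 45.1, 47.4 and 42.1 TPM in EpiLCs, against 94.4, 105 and 100.4 TPM in ESCs (log2 difference -1.14, SE 0.07, limma adjusted p = 4.2e-06). Sun2 had 3.30, 3.01 and 2.11 TPM in EpiLCs, against 6.68, 6.84 and 5.72 TPM in ESCs, a difference of -0.97. Tor1aip2, which encodes an activator of the envelope ATPase torsin, fell by 0.77 on the log2 scale. The highest rise was that of Lbr, for the lamin B receptor, which tethers heterochromatin to the B-type lamina. Lbr had 195, 209 and 203 TPM in EpiLCs, against 136, 142 and 135 TPM in ESCs (log2 difference 0.55, SE 0.05, limma adjusted p = 2.8e-05). Banf1, for a chromatin-binding factor of the envelope, was the most abundant uncalled gene, at 391 ± 13.7 TPM in EpiLCs and 372 ± 10.6 TPM in ESCs.

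Of 6 genes for proteins that farnesylate, cleave or bind prelamins, 1 rose, 1 fell and 4 were not called, with a median difference of -0.09. Among all tested genes, 36.1% were called higher and 30.9% lower. Narf, for a protein that binds prelamin A, had 14.7, 13.8 and 14.5 TPM in EpiLCs, against 9.08, 8.82 and 8.75 TPM in ESCs (log2 difference 0.63). Fntb, the catalytic subunit gene of farnesyltransferase, had 34.9, 30.9 and 34.0 TPM in EpiLCs, against 48.2, 41.5 and 45.5 TPM in ESCs (log2 difference -0.43). Its partner Fnta was at 112 ± 3.52 TPM in EpiLCs and 123 ± 8.57 TPM in ESCs and was not called (limma adjusted p = 0.094). Fnta was called lower without ESC replicate 1 and with median-of-ratios scaling (adjusted p from 0.0345 to 0.27 over all alternatives), and 3 of the 6 genes were lower with that scaling.

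Genes that anchor filaments at desmosomes and to other cytoskeletal fibres also split, 6 higher and 5 lower of 14 tested among 16 listed. Their median difference was 0.14. All tested genes split as well, 36.1% higher and 30.9% lower. The desmosomal cadherin gene Dsg2 had 8.57, 7.23 and 10.1 TPM in EpiLCs, against 41.4, 40.6 and 49.7 TPM in ESCs (log2 difference -2.22, SE 0.13, limma adjusted p = 4.0e-06). Dsp, for desmoplakin, which ties keratin filaments to the desmosome, had 5.08, 2.97 and 4.50 TPM in EpiLCs, against 12.0, 20.7 and 15.4 TPM in ESCs, a difference of -1.71. These desmosomal genes were thus lower while Krt8 and Krt18 were higher. The plakophilin gene Pkp2, whose protein joins cadherin tails to desmoplakin, went the other way, at 35.3, 35.5 and 39.2 TPM in EpiLCs, against 8.38, 9.04 and 10.1 TPM in ESCs, a difference of 1.89. Its relative Pkp3 was at 6.39 ± 0.59 TPM in EpiLCs and 8.19 ± 1.26 TPM in ESCs and was not called (limma adjusted p = 0.064), but was called lower in 4 of 15 alternatives, among them the 1 without ESC replicate 3 (adjusted p from 0.017 to 0.18 over all alternatives).

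**Figure D4:**
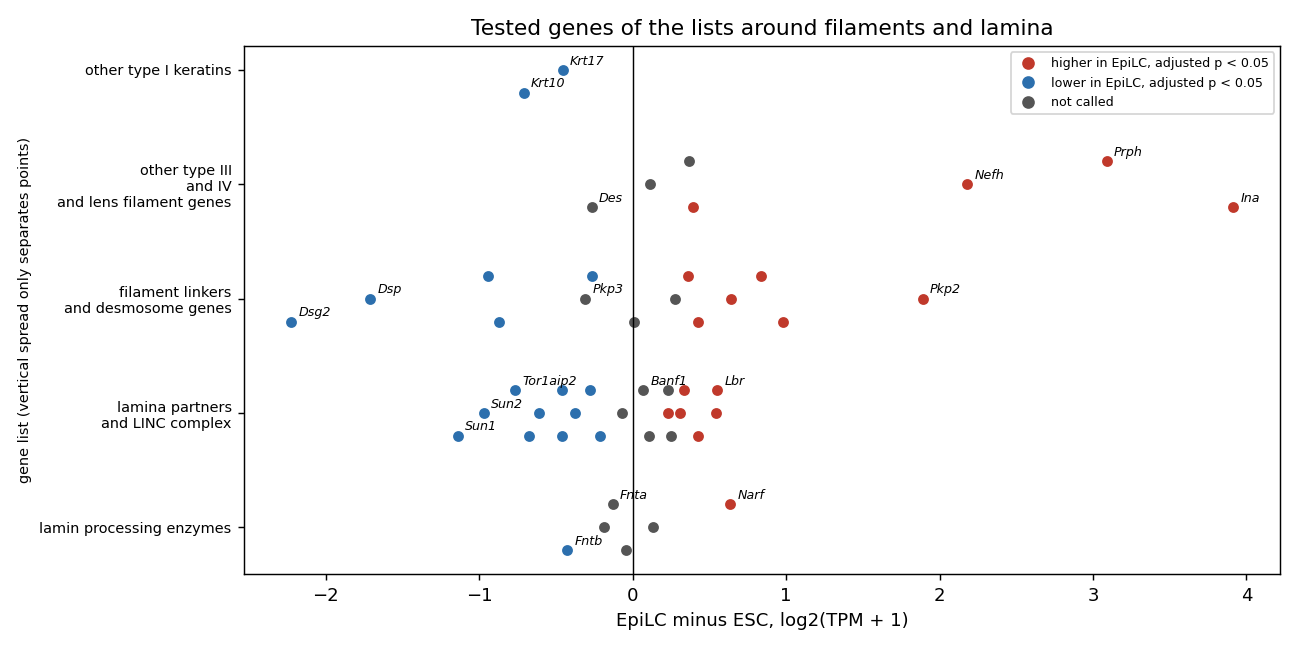
Difference of EpiLCs from ESCs, in log2(TPM + 1), for the tested genes of 5 lists of other filament, linker, lamina and lamin-processing genes, 1 point per gene, coloured by the call. The neuronal filament genes Ina, Prph and Nefh lie farthest to the right, at 3.92, 3.09 and 2.18, and the desmosomal gene Dsg2 farthest to the left, at -2.22.

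The order of the 10 genes by level differed between states. In EpiLCs, Lmnb1, Vim, Krt18 and Lmnb2 followed each other from high to low without overlapping ranges. Nes and Krt8 then overlapped at means of 14.6 TPM, Lmna, Krt7 and Krt19 overlapped between 3.39 and 5.85 TPM, and Krt42 was lowest. In ESCs, Lmnb1, Vim and Lmnb2 were again separate. Below them Nes, Krt18, Lmna, Krt42, Krt8 and Krt7 formed a run from 10.8 to 4.91 TPM in which each overlapped the next, and Krt19 was lowest.

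For Krt18 and Vim, the tested genes of at least 10 TPM with the most similar profile over the 6 libraries were found by Pearson r of log2(TPM + 1), which rests mainly on the difference between the groups. For Krt18 they were Znhit1, Ssbp3 and Map2k4, each with r above 0.99, but 1750 of 7633 genes reached 0.95. For Vim they were Mrps2, Ap4b1 and Idh1 (r = 0.99 each), and 110 genes reached 0.95.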

How the data were processed

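Poly(A) RNA libraries of 3 EpiLC and 3 ESC samples were analysed from 1 table of TPM that the authors deposited, with 1 column per library. The tools STAR, Salmon, Trim Galore and FastQC and the build mm39/GRCm39 are those named per the submitters' processing notes; versions, roles and annotation release are not given in the sources used here. Columns were matched to samples by group and replicate number. TPM keep no depth, so no count model or counting interval was used, and as shares they shift together.

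Genes with a mean of at least 1 TPM were tested as log2(TPM + 1) with limma 3.58.1 in R 4.3.3 (variance trend in eBayes). The script was tested on simulated data in which far fewer genes changed than were called here. Ratios of 7 gene pairs were compared by exact permutation (scipy 1.17.1). Named genes are all 10 members and, per list, the 3 called genes with the largest change, the largest in the minority direction and the most abundant uncalled gene. Genes neighbouring the keratins and Krt8-ps and Gm5200 were added by position or shared sequence, and Nefl, Nefm and single markers other than Fgf5 and Otx2 after their values were seen. The members and lists were chosen with earlier results of these data known. Sequences are from RefSeq (GRCm38.p6), a build other than that of the table. Python 3.11.15 was used. Alternatives were other pseudocounts (0.1, 0.5), filters (none, 5 TPM), scalings and weights, no variance trend, a replicate block and leaving out each library.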

Additional observations from a re-analysis of the deposited data

How the results depend on the processing

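Of 148 comparisons of a member gene under an alternative, 144 kept direction and call. The other 4 were sign changes of Krt7, whose difference was 0.10 with sample weights, 0.15 without EpiLC replicate 2, 0.135 without ESC replicate 2 and 0.08 without ESC replicate 3, and ran from -0.30 to 0.15 over the fits without 1 library, never called. Of 371 such comparisons of other named genes, 348 kept their call, 23 changed it and 0 changed direction. The counts of 5 higher and 3 lower members held in all alternatives, except that 4 were higher with a filter at 5 TPM, where Krt7 and Krt19 were not tested. Over all genes, 3832 to 6100 were called higher and 3268 to 4931 lower. With replicate number as a block, 5135 genes were higher and 4477 lower, and the same numbers of members were called. Under the block, Des (adjusted p = 0.0476) and Pkp3 (0.0243) were called lower and Krt17 (0.073) was not. Whether same-numbered libraries were paired is not settled. Their deviations from the group means correlated weakly, at 0.102, 0.142 and 0.065, but each library correlated best with its own number. Libraries of unlike number correlated at -0.111 to 0.02. Because the deviations within a group cancel out, these values are in part fixed by those of same-numbered libraries. The 7 ratios kept their direction with TPM + 1 and without each library, and the keratin and lamin sums moved by less than 1 SD with median-of-ratios scaling. Unknown depth limits weak genes such as Krt42 in EpiLCs and Krt19 in ESCs, for which no counting error can be given.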

Other observations

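Of the 46 other keratins below the filter, 32 were above 0 in some library. Of these 32, limma with no filter on TPM called 6, against 11.6% of 22639 genes in that fit with a mean below 1 TPM. Krt12, the keratin of corneal epithelium, had 1.06, 0.665 and 0.815 TPM in the EpiLC libraries, against 0.0192 TPM in ESC replicate 1, and it was listed at 0 in the other ESC libraries (limma adjusted p = 0.0010). Krt20, known from intestinal epithelium, had 1.32, 1.59 and 0.448 TPM in EpiLCs, against 0.0368, 0.128 and 0.0930 TPM in ESCs (limma adjusted p = 0.023). Krt16, a type I keratin of stressed epidermis and a neighbour of Krt17 and Krt42, had 0.0834, 0.0502 and 0.148 TPM in EpiLCs, against 0.669, 1.18 and 0.539 TPM in ESCs (limma adjusted p = 0.012). These 3 were picked after their values were seen, as the most abundant of the 6.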
